A study of Mus musculus with 6 samples.

Results

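The Hox genes of clusters A to D are described here across mouse sarcoma cells that lack Dicer and sarcoma cells that keep a working copy of it. Every probe set annotated to exactly 1 symbol made of Hox, a cluster letter and a paralog number was taken, which gave 48 of the 45037 probe sets on the arrays and 33 of the 39 Hox genes in the mouse gene table, among 18193 genes named in this way. The genes fell into 9 of HoxA, 9 of HoxB, 7 of HoxC and 8 of HoxD, and the other Hox genes were not analysed here. The selection of the 33 genes used no measured value.

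The Dicer null group held 3 arrays of a sarcoma cell line with no functional Dicer, and the Dicer heterozygous group held 3 arrays of a sarcoma cell line with 1 functional copy. All cells are labelled as strain C57BL6/J, were kept in DMEM with serum, L-glutamine and antibiotics, and were collected once confluent. The labels used here do not give the anatomical site of the tumours, the driver mutations, the Dicer allele or how it was deleted, whether a line is 1 clone, or whether the 3 arrays of a group came from separate lines or cultures. The p-values therefore measure the spread between these arrays, part of which may be technical. Precision was limited by the number of arrays, 3 per group. In such bulk RNA, fewer cells that express a gene and less RNA per cell cannot be told apart.

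Hox genes encode homeodomain transcription factors that give cells their position along the body axis. In mouse they sit in clusters on separate chromosomes, and within a cluster the low-numbered paralogs lie at the end that is active in the head and neck region and the high-numbered ones at the end that is active in the tail, limb ends and genital region. Adult fibroblasts and other mesenchymal cells keep much of the Hox pattern of the site they came from. Polycomb proteins hold unused Hox genes silent, trithorax proteins keep active ones on, and Pbx, Meis and Pknox proteins bind DNA together with Hox proteins.

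The clusters also encode microRNAs, which need Dicer to mature, and the mature forms of the miR-196 and miR-10 families are therefore shown with let-7a, the family named in the title of the series. The seed, bases 2 to 8, is in capitals, and the sequences are from RefSeq on build GRCm38.p6.
mmu-miR-196a-5p: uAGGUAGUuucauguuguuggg
mmu-miR-196b-5p: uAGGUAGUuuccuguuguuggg
mmu-miR-10a-5p: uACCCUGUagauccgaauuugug
mmu-miR-10b-5p: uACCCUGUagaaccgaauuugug
mmu-let-7a-5p: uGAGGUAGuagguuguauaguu
The copies of miR-196a lie between Hoxb13 and Hoxb9 (chr11:96265187-96265208, plus strand) and between Hoxc10 and Hoxc9 (chr15:102973365-102973386, plus strand). miR-196b lies between Hoxa9 and Hoxa10 (chr6:52230129-52230150, minus strand). miR-10a lies between Hoxb5 and Hoxb4, inside the annotated span of Hoxb3 (chr11:96317186-96317208, plus strand), and miR-10b lies inside the spans of Hoxd3 and Hoxd4 (chr2:74726074-74726096, plus strand). The let-7a copy shown is that of Mirlet7a-1 (chr13:48538239-48538260, minus strand). Within each Hox-linked pair the members share the seed and differ at 1 base. The miR-196 seed and the let-7 seed share the run AGGUAG, 6 bases, shifted by 1 position. These arrays did not measure mature microRNAs.

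Before the comparison, the arrays were looked over with the proliferation and cell type marker lists. Of 10 mesenchymal markers 9 were detected and 1, Thy1, lay below the minimum on average, though it reached 4.29 on heterozygous replicate 1. The summed log2 values of the 10 ranged from 108.4 to 112.8 on Dicer null arrays and from 115.6 to 116.7 on Dicer heterozygous arrays. Of the 9 log2 differences, null minus heterozygous, 3 were positive and 6 negative (median -0.17), where 48.9% of all tested genes were positive. Pdgfra and S100a4 had the lowest, -1.63 and -1.37. All 6 endothelial markers lay below the minimum (summed 12.6 to 13.3 on null and 11.7 to 11.9 on heterozygous arrays), as did 5 of 6 leukocyte markers (12.6 to 14.7 and 13.4 to 14.8), with Ptprc at 1.58 to 1.62 on null and 1.55 to 1.57 on heterozygous arrays. The leukocyte marker that was detected, Cd68, stood at 5.3, 4.43 and 5.84 on null and 7.13, 5.24 and 5.3 on heterozygous arrays. Of 8 epithelial markers 5 were below the minimum (summed 21.8 to 28.2 on null and 19.9 to 33.1 on heterozygous arrays), of 6 skeletal muscle markers 4 (16.8 to 17.7 and 14 to 22.7), and of 5 neural markers 3 (15 to 19.4 and 18.8 to 23.8). Among those detected, the epithelial Krt19 stood at 8.5, 8.15 and 6.49 on null and 8.92, 7.07 and 4.75 on heterozygous arrays. Epcam, also epithelial, stood at 3.1, 5.21 and 3.26 on null and 3.55, 3.15 and 2.53 on heterozygous arrays. The neural Map2 stood at 2.38, 6.31 and 1.39 on null and 5.98, 9.08 and 6.79 on heterozygous arrays. The other neural marker detected, Tubb3, had the higher mean in null arrays, at 8.2, 6.35 and 7.12 against 6.52, 8.05 and 5.59. The keratin gene Krt18 stood at 2.23, 2.68 and 2.0 on null arrays and at 9.02, 2.09 and 2.17 on heterozygous arrays, so that heterozygous replicate 1 stood apart. The median of the 19 proliferation genes measured, relative to each gene's mean, was 0.22, 0.50 and 0.20 on null arrays and -0.06, 0.04 and -0.81 on heterozygous arrays, so that heterozygous replicate 3 stood apart. Every null array lay above every heterozygous array in this median. The targeted gene, Dicer1, stood at 8.46 ± 0.09 in null and 8.32 ± 0.24 in heterozygous arrays by its brighter probe set (SD, n = 3 each; limma adjusted p = 0.693), and since the deleted part is not given, this checks nothing.

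Genes of HoxA, HoxC and HoxD were detected in the sarcoma cells of both genotypes, and all of HoxB lay below the minimum. Values are deposited log2 GCRMA values per probe set, and a probe set was tested when its mean over the 6 arrays was at least 3. That held for 25 of the 48 Hox probe sets and 20 of the 33 genes, 7 of 9 in HoxA, 0 of 9 in HoxB, 7 of 7 in HoxC and 6 of 8 in HoxD. The 11 HoxB probe sets lay between 0.96 and 3.15 over all arrays, and 1 of their 66 values reached 3, that of Hoxb9 on null replicate 1. Outside HoxB, Hoxa2, Hoxa13, Hoxd1 and Hoxd12 were below the minimum. Where several probe sets of a gene were tested, the brightest on average stands for it.

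No Hox gene passed the test between the genotypes, either way. With limma's moderated test, adjusted by Benjamini-Hochberg across the 24385 probe sets tested, 0 of 20 Hox genes and 0 of 25 Hox probe sets were called, against 3.46% of all 11425 tested genes and 3.10% of all tested probe sets. An unadjusted p under 0.05 was reached by 8 of the 20 genes, 4 with higher and 4 with lower values in Dicer null arrays, where 24.0% of all tested genes reached it. With ordinary t statistics the count was also 0. The 3 null values lay wholly above or below the 3 heterozygous ones for 7 of the 20 genes, close to the 32.2% of all tested genes. Over the 20 genes the median log2 difference, null minus heterozygous, was 0.27, beside -0.01 over all tested genes, with 13 positive and 7 negative differences, where 48.9% of all tested genes were positive and 51.1% negative. Differences of at least 1 upward were found for 6 of the 20, beside 6.28% of all tested genes, and of at least 1 downward for 1, beside 9.03%. One of the 6, Hoxd13, reached the minimum only through the null arrays, where it is high, and 5 remain without it. It is kept in the 13 positive differences and in the median. The shares of all tested genes were not cleared of such genes, so 6.28% is no like share for the 5.

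**Figure D1:**
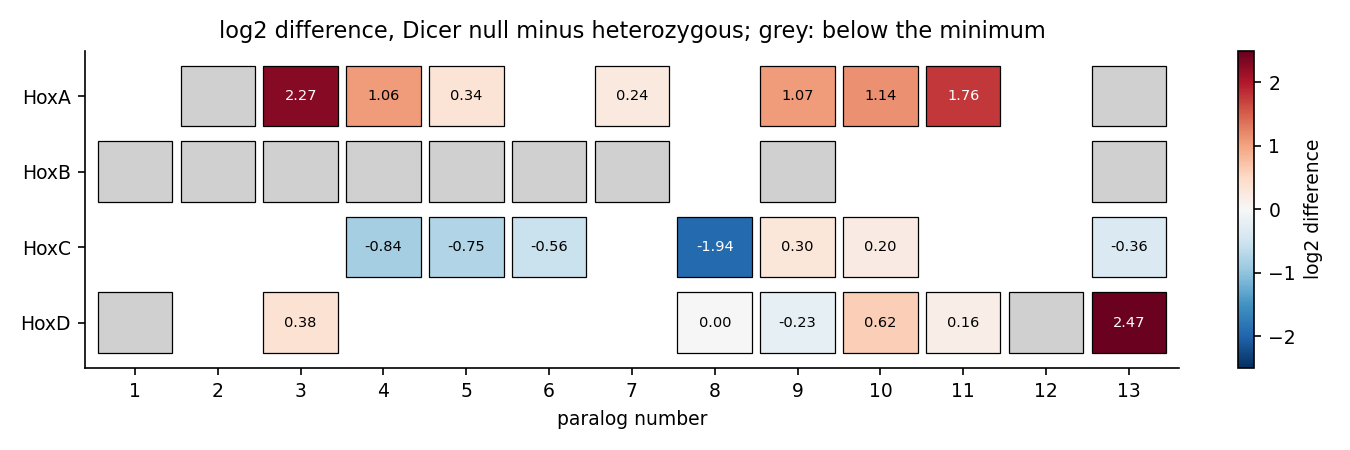
Each box is a Hox gene placed by cluster (rows) and paralog number (columns), with its log2 difference, Dicer null minus Dicer heterozygous, printed and coloured for the 20 tested genes; grey boxes are the 13 genes below the minimum and empty places hold no gene analysed here. The 7 tested HoxA genes are all above 0 (0.24 to 2.27), Hoxc4 to Hoxc8 are all below 0 (-0.56 to -1.94), and HoxB is grey throughout.

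Positive and negative differences were counted in each cluster. In HoxA all 7 tested genes had higher means in null arrays, with a median log2 difference of 1.07, and 4 of the 7 did not overlap between groups with the null arrays higher, beside 14.9% of all tested genes. In HoxC 5 of 7 had lower means in null arrays, with a median of -0.56, and 3 of the 7 did not overlap with the null arrays lower, beside 17.3%. In HoxD 4 differences were positive and 2 negative, with a median of 0.27, and the groups of all 6 genes overlapped. The HoxD median was 0.01 without null replicate 1 or without heterozygous replicate 1, 0.60 without null replicate 2 and 0.64 without heterozygous replicate 3. All these HoxD figures include Hoxd13, which reached the minimum only through the null arrays. With a minimum mean of 4, which leaves Hoxd13 out, 3 of 5 HoxD differences were positive and 2 negative (median 0.16). The medians over all tested genes of the same chromosomes were 0.16 for the 566 on chromosome 6, which holds HoxA, -0.05 for the 447 on chromosome 15, which holds HoxC, and 0.12 for the 930 on chromosome 2, which holds HoxD. Differences were positive for 363 of the 566, 197 of the 447 and 562 of the 930. These counts describe the clusters. Whether the clusters differ from each other was not tested, since the genes were grouped by cluster with results of these arrays known.

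Hoxa9, which is active in the trunk and hindlimb and promotes the self-renewal of blood progenitors, came nearest to the threshold. It stood at 12.44, 12.33 and 12.68 on null replicates 1, 2 and 3, against 11.19, 11.33 and 11.73 on heterozygous replicates 1, 2 and 3. Every null array lay above every heterozygous one, with the third replicate the highest in each group. The means were 12.48 ± 0.18 in null and 11.42 ± 0.28 in heterozygous arrays (SD, n = 3 each), a log2 difference of 1.07 (SE 0.21, 95% interval 0.56 to 1.57, limma adjusted p = 0.0536). A dimmer probe set of the same gene differed by 2.0 (limma adjusted p = 0.0966), also without overlap, at 7.79, 7.81 and 8.94 on null against 5.32, 6.10 and 7.12 on heterozygous arrays.

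Hoxa3, which patterns the pharyngeal arches and is needed for the thymus and parathyroid in mouse, had the largest difference among the tested HoxA genes. Its values were 6.43, 6.88 and 7.69 on the null arrays and 3.95, 4.65 and 5.58 on the heterozygous arrays. The groups did not overlap, and in both the values ran over more than 1 log2 unit. The difference was 2.27 (SE 0.50, 95% interval 1.07 to 3.48, limma adjusted p = 0.0661), a 4.83-fold ratio. This probe set carries the suffix s, which marks probes that match more than 1 transcript, and the gene's other tested probe set, without that suffix, differed by 1.21 (limma adjusted p = 0.135). Without heterozygous replicate 3, the array with low proliferation genes, Hoxa3 passed with a difference of 2.70 (limma adjusted p = 0.0422) and Hoxa9 with 1.22 (0.0392). No other single array left out gave a Hox call, and the part of proliferation in these results was not tested.

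The remaining HoxA genes with central numbers gave smaller differences. Hoxa4 stood at 4.17, 5.39 and 4.77 on null arrays and 3.25, 3.89 and 4.01 on heterozygous arrays, which do not overlap by a narrow margin, and differed by 1.06 (SE 0.37, limma adjusted p = 0.160). Hoxa5, which in mouse is needed for lung and cervical and upper thoracic vertebral development, stood at 5.46, 4.99 and 5.28 on null and 4.55, 5.12 and 5.04 on heterozygous arrays. Its groups overlapped, and the difference of 0.34 had a 95% interval of -0.21 to 0.89. Hoxa7 stood at 4.77, 4.71 and 4.74 on null and 4.38, 4.75 and 4.37 on heterozygous arrays, again overlapping (difference 0.24, interval -0.18 to 0.66).

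Hoxa10 and Hoxa11, which pattern the uterus and the limb, varied widely within the heterozygous group. Hoxa10 stood at 11.12, 11.34 and 11.87 on null arrays and at 9.05, 10.66 and 11.19 on heterozygous arrays. The low value of heterozygous replicate 1 made up much of the difference of 1.14 (SE 0.56, limma adjusted p = 0.280), which was 0.52 without that array. The part in it of what sets that array apart in Krt18 was not tested. Hoxa11 stood at 9.79, 9.71 and 11.02 on null arrays and at 8.11, 9.69 and 7.44 on heterozygous arrays. Heterozygous replicate 2 came within reach of the null values but stayed below them, and the difference was 1.76 (SE 0.65, 95% interval 0.19 to 3.33, limma adjusted p = 0.177). Heterozygous replicate 1 held the lowest value of 5 of the 7 tested HoxA genes and null replicate 3 the highest of 4. With any 1 array left out, 7 of 7 HoxA genes kept a positive difference, and their median ran from 0.83 without heterozygous replicate 1 to 1.30 without null replicate 1. The genes below the minimum, Hoxa2 and Hoxa13, averaged 3.17 and 2.72 in null and 2.78 and 2.60 in heterozygous arrays.

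**Figure D2:**
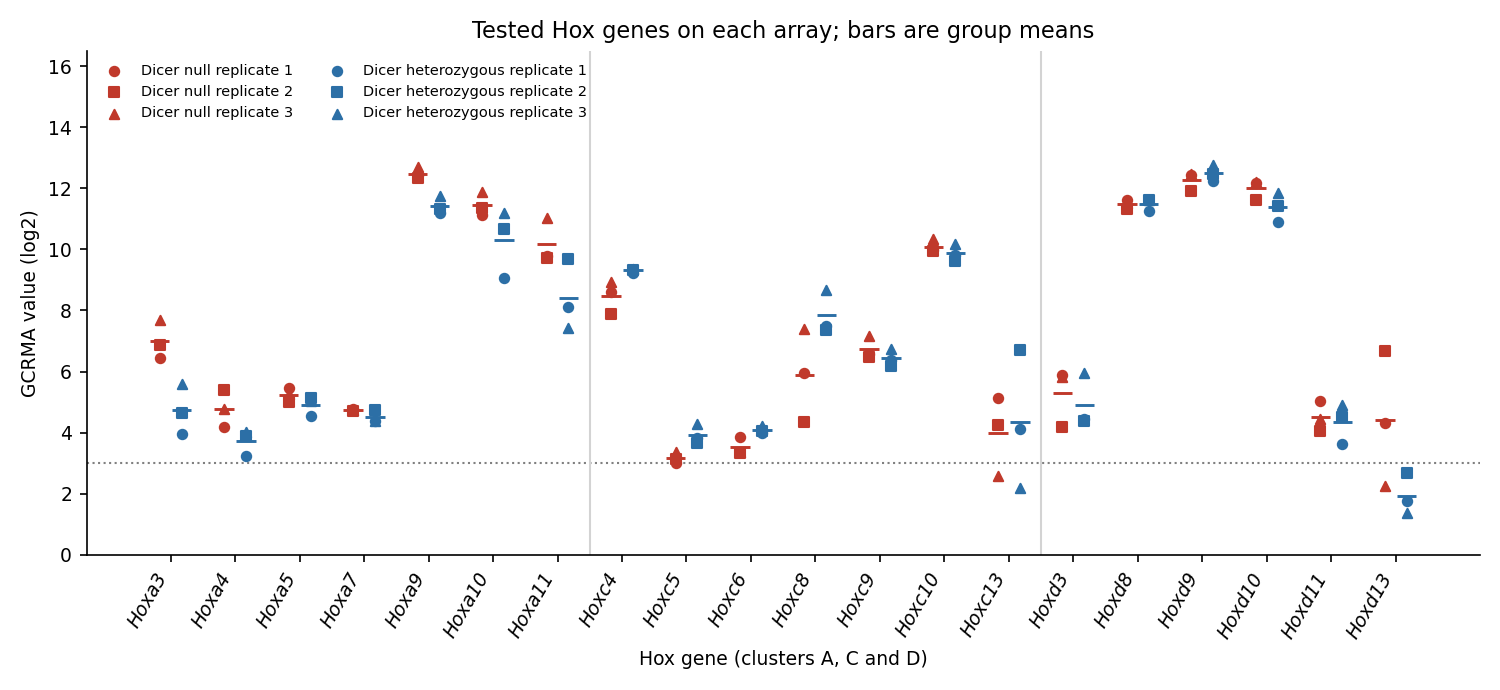
Deposited log2 GCRMA values of the 20 tested Hox genes on every array (points; shape gives the replicate), with Dicer null arrays in red left of Dicer heterozygous arrays in blue, group means as short bars and the minimum of 3 as a dotted line. Hoxa9 separates by genotype with little spread, while Hoxc8, Hoxc13 and Hoxd13 spread over more than 2 log2 units within the null group.

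In HoxC the genes numbered 4 to 8 had lower means in null arrays and those numbered 9 and 10 did not. Hoxc4 stood at 8.60, 7.87 and 8.92 on null arrays and at 9.23, 9.32 and 9.37 on heterozygous arrays, a difference of -0.84 (SE 0.29, 95% interval -1.54 to -0.15, limma adjusted p = 0.155). The heterozygous arrays lay within 0.14 of each other and above every null array. Hoxc5 stood at 3.02, 3.15 and 3.36 on null and 3.82, 3.67 and 4.28 on heterozygous arrays (difference -0.75, SE 0.22, limma adjusted p = 0.116). Hoxc6, a marker of thoracic identity, stood at 3.86, 3.34 and 3.38 on null and 3.98, 4.07 and 4.22 on heterozygous arrays (difference -0.56, SE 0.20, limma adjusted p = 0.17). Both genes lay just above the minimum of 3, where GCRMA values depend on its background model, and neither overlapped between groups. A second probe set of Hoxc6 averaged 2.86 in null and 3.55 in heterozygous arrays and reached the minimum only through the heterozygous group.

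Hoxc8, a thoracic and lumbar gene and one of the Hox genes with miR-196 target sites, had the lowest difference of all 20 genes. It stood at 5.95, 4.35 and 7.38 on null arrays and at 7.48, 7.35 and 8.68 on heterozygous arrays, so that null replicate 3 reached just above the lowest heterozygous value. The null arrays spanned 3.03 log2 units. The difference was -1.94 (SE 0.79, 95% interval -3.86 to -0.03, limma adjusted p = 0.210), and it was -1.17 without null replicate 2 and -2.69 without null replicate 3. Hoxd8 and Hoxa7, for which miR-196 sites are also known, had differences of 0.00 (95% interval -0.45 to 0.44) and 0.24. Hoxd8 stood at 11.60, 11.31 and 11.53 on null and 11.24, 11.61 and 11.60 on heterozygous arrays.

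Further along HoxC the genotypes overlapped. Hoxc9 stood at 6.59, 6.47 and 7.15 on null and 6.38, 6.18 and 6.75 on heterozygous arrays (difference 0.30, interval -0.32 to 0.92). Hoxc10, a hindlimb and lumbar gene, stood at 9.97, 9.93 and 10.33 on null and 9.81, 9.62 and 10.19 on heterozygous arrays (difference 0.20, interval -0.33 to 0.73). The groups of both overlapped. Hoxc13, which drives hair and nail keratins, stood at 5.13, 4.26 and 2.57 on null and 4.13, 6.71 and 2.2 on heterozygous arrays. In each genotype the third replicate lay below the minimum and another array well above it, and the interval of the difference, -3.30 to 2.58, covers changes in both directions.

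**Figure D3:**
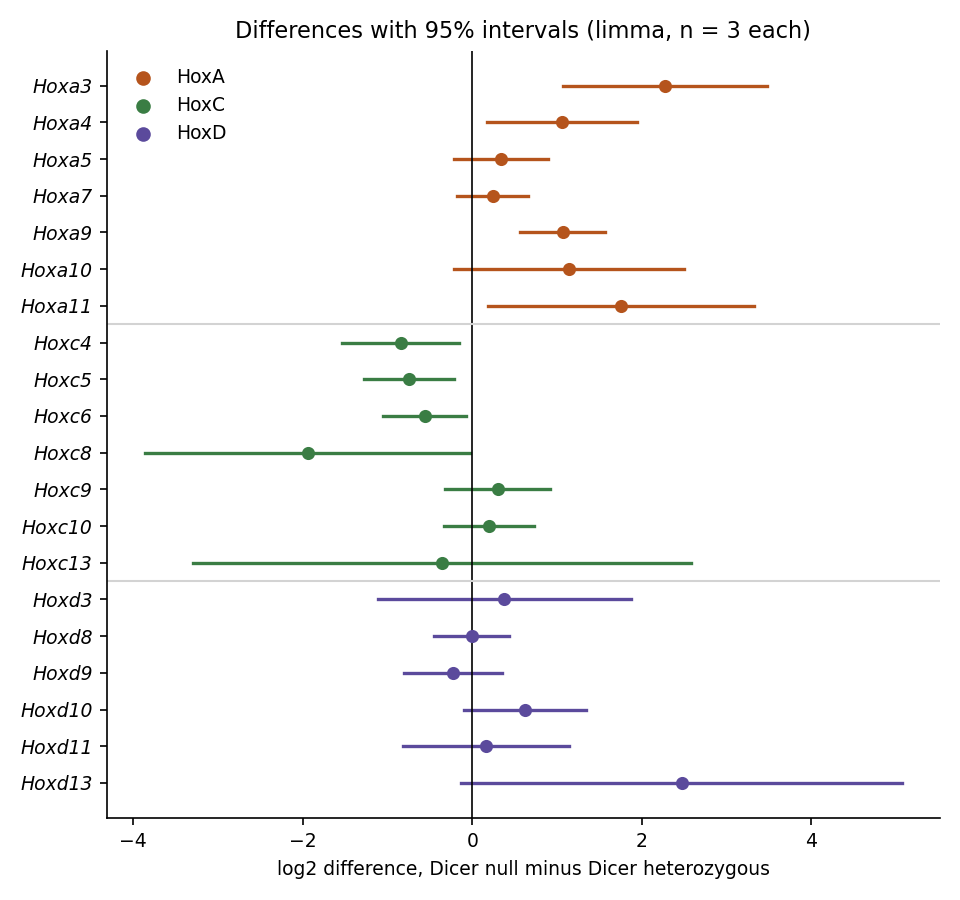
Log2 differences, Dicer null minus Dicer heterozygous, of the 20 tested Hox genes (points) with limma's 95% intervals (lines), ordered along HoxA, HoxC and HoxD from top to bottom. The unadjusted intervals of Hoxa3, Hoxa4, Hoxa9 and Hoxa11 lie above 0 and those of Hoxc4, Hoxc5, Hoxc6 and Hoxc8 below 0, but no gene passed after adjustment.

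The HoxD genes numbered 8 to 10 were detected on every array of both genotypes. Hoxd9 stood at 12.44, 11.90 and 12.47 on null and 12.24, 12.48 and 12.77 on heterozygous arrays (difference -0.23, interval -0.80 to 0.35). Hoxd10, a limb and lumbar gene and a miR-10b target in human breast cancer cells, stood at 12.18, 11.62 and 12.21 on null and 10.91, 11.42 and 11.83 on heterozygous arrays. Null replicate 2 fell inside the heterozygous range, and the difference was 0.62 (interval -0.10 to 1.34, limma adjusted p = 0.274). Hoxd3 stood at 5.89, 4.20 and 5.81 on null and 4.44, 4.38 and 5.94 on heterozygous arrays, and Hoxd11, a gene of the forearm, at 5.05, 4.04 and 4.45 on null and 3.64, 4.51 and 4.90 on heterozygous arrays. Both overlapped, with differences of 0.38 (interval -1.11 to 1.87) and 0.16 (interval -0.82 to 1.14).

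The genes at the ends of HoxD, Hoxd1, Hoxd12 and Hoxd13, lay below 3 on every heterozygous array, and Hoxd12 did so on every null array too. Hoxd13, which patterns digits and genitalia, stood at 4.32, 6.66 and 2.24 on null and 1.77, 2.67 and 1.37 on heterozygous arrays. A null array lay below the minimum too, and the difference of 2.47 (SE 1.07, interval -0.13 to 5.07, limma adjusted p = 0.235) rested largely on null replicate 2. It was 1.34 without that array, 3.55 without null replicate 3, and 1.66 with all values under 3 set to 3. The gene's other probe set lay below 2 on all arrays and differed by -0.19. Hoxd1 stood at 3.29, 4.06 and 3.68 on null and 1.99, 2.24 and 1.83 on heterozygous arrays, at least 1.6-fold higher in null arrays against a log2 value of 3. Its groups were well apart, but its mean over the 6 arrays was 2.85, so that it was not tested. With a minimum mean of 2 in its place Hoxd1 was called (difference 1.66, SE 0.23, limma adjusted p = 0.0356). Hoxd12 averaged 2.51 in null and 2.51 in heterozygous arrays.

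Seen by paralog number, the 2 tested genes numbered 1 to 3, Hoxa3 and Hoxd3, had positive differences of 2.27 and 0.38, that of Hoxd3 being 0.09 without null replicate 1. Of 8 numbered 4 to 8, 3 had positive and 5 negative differences, Hoxd8 among them at 0.00 after rounding (median -0.28), and of 10 numbered 9 to 13, 8 had positive and 2 negative ones (median 0.46). The 8 positive ones and the median of 0.46 include Hoxd13, which reached the minimum only through the null arrays. Of the tested genes, 5 spanned at least 2 log2 units within a genotype: Hoxa10 and Hoxa11 in the heterozygous group, Hoxc8 and Hoxd13 in the null group, and Hoxc13 in both.

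**Figure D4:**
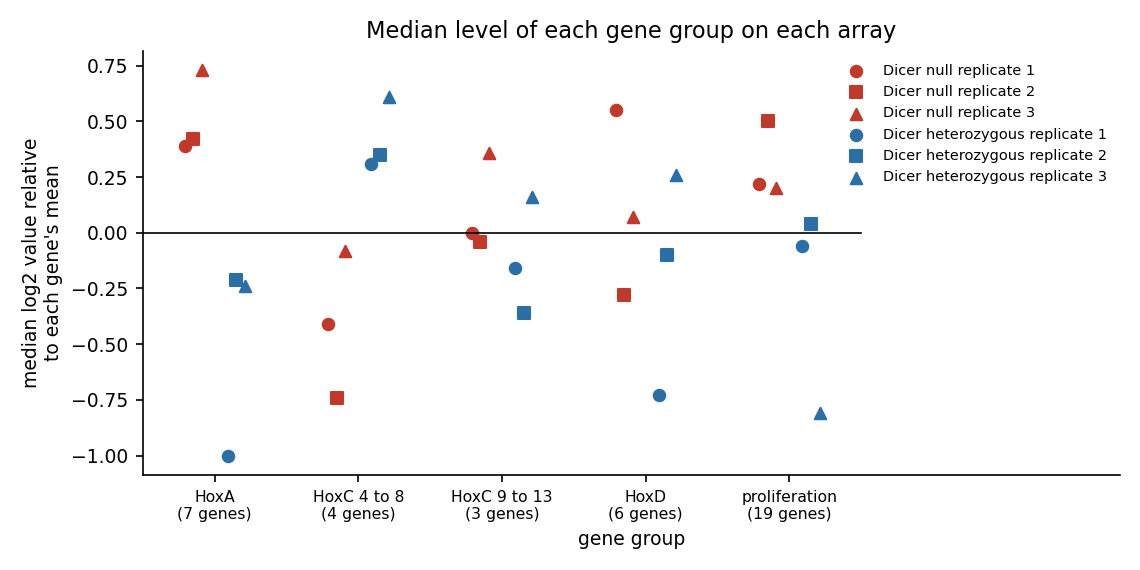
Median log2 value of a gene group on each array, relative to each gene's mean over the 6 arrays (vertical axis), for HoxA, the lower and upper parts of HoxC, HoxD and the proliferation list, with Dicer null arrays in red left of Dicer heterozygous arrays in blue. HoxA medians are 0.39, 0.42 and 0.73 on null and -1.0, -0.21 and -0.24 on heterozygous arrays, those of Hoxc4 to Hoxc8 are -0.41, -0.74 and -0.08 on null and 0.31, 0.35 and 0.61 on heterozygous arrays, and HoxD is mixed.

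The lists of related genes are read beside the shares of all tested genes, of which 3.46% were called (1.45% higher and 2.0% lower in null arrays), 24.0% had an unadjusted p under 0.05 and 48.9% had a positive difference. Among the genes that act with Hox proteins, 0 of 8 tested Pbx, Meis and Pknox genes was called by limma, 3 having an unadjusted p under 0.05, and 6 had positive differences (median 0.65). The one with the smallest p was Meis3, at 6.32, 5.72 and 5.60 on null and 4.81, 4.29 and 5.15 on heterozygous arrays (difference 1.13, SE 0.30, limma adjusted p = 0.0968).

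Of 26 tested Polycomb genes, Mtf2 rose and none fell, a count of calls near the 3.46% of all tested genes, and 20 had positive differences, beside 48.9% of all tested genes (median 0.46). Mtf2 is a DNA-binding accessory subunit that helps recruit Polycomb repressive complex 2. It stood at 10.41, 10.52 and 10.19 on null and 8.88, 9.08 and 8.81 on heterozygous arrays (difference 1.45, SE 0.17, limma adjusted p = 0.0203), and all 5 of its tested probe sets were higher in null arrays without overlap, by 1.12 to 2.69. Its call was lost without heterozygous replicate 2 (limma adjusted p = 0.0628), null replicate 1 (0.0653), null replicate 2 (0.0827) or null replicate 3 (0.0736), with the replicate block (0.0621) and with ordinary t statistics (0.081). Of 11 trithorax and demethylase genes 0 were called by limma, 2 having an unadjusted p under 0.05, beside 3.46% and 24.0% of all tested genes, and Kdm6b, which removes the Polycomb mark from histone H3, had the smallest p (difference 0.52, SE 0.15, limma adjusted p = 0.111).

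Of 8 tested genes that act upstream of Hox genes in the axis, 1 rose and 1 fell, beside 1.45% and 2.0% of all tested genes. Nr6a1, the orphan nuclear receptor that in mouse embryos governs trunk development and the timing of Hox expression and is named in the title of the series, stood at 10.28, 10.19 and 10.14 on null and 7.12, 6.5 and 6.88 on heterozygous arrays (difference 3.37, SE 0.20, limma adjusted p = 0.00647). Its next brightest probe set differed by 3.29 (limma adjusted p = 0.0161). The Nr6a1 call held with any 1 array left out (limma adjusted p at most 0.0384) and was lost with ordinary t statistics (0.0657). Rarg, a retinoic acid receptor, stood at 6.3, 6.27 and 6.63 on null and 7.67, 8.03 and 7.57 on heterozygous arrays (difference -1.36, SE 0.20, limma adjusted p = 0.0313). Its other tested probe set averaged 2.78 in null and 3.44 in heterozygous arrays and reached the minimum only through the heterozygous group. That probe set differed by -0.67 (limma adjusted p = 0.203). The Rarg call held without heterozygous replicate 3 (limma adjusted p = 0.0365) and was lost without heterozygous replicate 1 (0.0561) or 2 (0.0932), null replicate 1 (0.0951), 2 (0.110) or 3 (0.0895), with the replicate block (0.0876), with its probe sets averaged (0.0558) and with ordinary t statistics (0.112). Gdf11, Cdx1, Cdx2 and Cdx4, which activate posterior Hox genes, lay below the minimum. Genes and antisense transcripts beside the clusters gave 0 calls of 14 tested by limma, 2 having an unadjusted p under 0.05, beside 3.46% and 24.0% of all tested genes. On the flanks of HoxA, Skap2, Hibadh and Snx10 differed by -0.12, 0.05 and -0.08 and Jazf1 by 0.90 (SE 1.51), while Cbx5 beside HoxC, with the smallest p of this list, differed by 0.82 (SE 0.21, limma adjusted p = 0.0937).

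Nr6a1 binds a direct repeat of AGGTCA with no spacer, so promoter windows from RefSeq (build GRCm38.p6) were searched for these letters on both strands. The table held 21 windows for 19 of the 33 Hox genes. The full head-to-tail repeat was in 0 of the 21, and in 0.00609% of all 32851 promoter windows of the same length. The single unit AGGTCA, which the repeat also contains, was in 6 of the 21, those of Hoxa5, Hoxb4, Hoxc4, Hoxd3, Hoxd8 and Hoxd10, beside 16.3% of all windows. A match describes the letters only, and a window without one says nothing of binding elsewhere. The stretches of 250 bases before the annotated starts of Hoxa9, the HoxA gene with the smallest p, and Hoxc4, the only HoxC gene with a window in the table, are shown with an AGGTCA unit on either strand in capitals.
Hoxa9 (chr6:52227371-52227620, minus strand): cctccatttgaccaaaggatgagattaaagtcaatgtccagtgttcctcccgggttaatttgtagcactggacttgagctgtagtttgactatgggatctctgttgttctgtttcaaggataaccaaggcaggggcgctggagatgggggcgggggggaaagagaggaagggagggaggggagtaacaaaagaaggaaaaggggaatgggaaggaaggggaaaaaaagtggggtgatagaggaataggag
Hoxc4 (chr15:103034145-103034394, plus strand): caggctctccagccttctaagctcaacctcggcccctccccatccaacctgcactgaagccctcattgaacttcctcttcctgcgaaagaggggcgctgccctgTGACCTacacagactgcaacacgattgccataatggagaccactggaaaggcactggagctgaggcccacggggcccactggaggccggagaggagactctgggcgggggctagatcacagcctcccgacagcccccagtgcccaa
The Hoxa9 stretch is 49.6% G and C and holds no AGGTCA unit. The Hoxc4 stretch is 62.0% G and C and holds 1, on the reverse strand.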

How the data were processed

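RNA of 6 samples was measured on Affymetrix 3′ arrays, 3 for each genotype as the titles state it. The values are log2 per probe set as deposited by the authors, made with R 2.11.1 and GCRMA 2.20.0, per the submitters' processing notes. GCRMA corrects background by probe sequence and normalizes quantiles, so a global shift in RNA cannot be seen and values near 3 or below depend on its background model. Array medians lay between 3.32 and 3.43.

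Gene names came from the platform annotation where a probe set has 1 symbol (34945 of 45037), and 20652 probe sets with a mean under 3 were left out. A linear model per probe set was fitted with limma 3.58.1 in R 4.3.3 (lmFit and eBayes, two-sided, no block, Benjamini-Hochberg adjustment at 0.05), after testing on simulated data. Figures used matplotlib 3.10.9. The members and lists were chosen with earlier results of these data known. Text genes were the called or non-overlapping Hox genes, the 12 with the smallest p, those spanning 2 or more within a genotype, and each other list's called members or smallest p. Skap2, Hibadh, Snx10, Jazf1, Hoxa11os and the remaining tested Hox genes were added after their values were seen. The markers Thy1, Pdgfra, Ptprc, Krt18, Krt19, Tubb3 and Acta1 also fall outside these rules. Of the proliferation list 0 of 19 genes were called by limma (5 with an unadjusted p under 0.05), beside 3.46% and 24.0% of all tested genes. Cdc6 had the smallest p (limma adjusted p = 0.057). All 19 differences were positive (median 0.61), beside 48.9% of all tested genes. In 10 of the 19 the groups did not overlap with the null arrays higher, beside 14.9%.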

Additional observations from a re-analysis of the deposited data

How the results depend on the processing

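In 19 alternative settings the HoxA median stayed positive (0.83 to 1.30) and that of Hoxc4 to Hoxc8 negative, at -1.39 with a minimum mean of 4, where 2 of its genes remained. Analyses by cluster, and of Mtf2, Nr6a1 and Rarg, were added after the data were seen. With a minimum mean of 2 or none, 1 Hox probe set and 1 gene, Hoxd1, were called higher, among 710 and 620 probe sets called in all. Trend and robust moderation called 1 and 1 (Hoxa9) among 929 probe sets, and gene-by-gene array weights 3 and 2 (Hoxa3 and Hoxa9) among 2949 probe sets. Ordinary t statistics called 0 probe sets of any gene. Same-numbered arrays deviated together at correlations of -0.06, 0.11 and 0.24, so the numbers were not taken as pairs; with the replicate block 116 probe sets were called, with 1 Hox probe set and 1 Hox gene (Hoxa3, limma adjusted p = 0.0484). Without 1 array, 45 to 857 probe sets, 0 to 2 Hox probe sets and 0 to 2 higher Hox genes were called. No setting run called a Hox gene lower. Signs turned for 3 genes. Without 1 array, Hoxd11 ran from -0.19 to 0.44 (negative without null or heterozygous replicate 1), Hoxc13 from -1.43 to 0.82 (positive without null replicate 3 or heterozygous replicate 2) and Hoxd8 from -0.12 to 0.08 (positive without null replicate 2 or heterozygous replicate 2 or 3). Hoxd8 was also positive in other settings (0.01 with the probe set of smallest p or without suffix s or x, 0 with probe sets averaged). The cause was not tested.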

Other observations

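Probe sets annotated to a pair of Hox genes were outside the selection. The 2 shared by Hoxd4 and Hoxd3 lay between 2.36 and 2.69 on null and between 2.01 and 2.90 on heterozygous arrays, and the one shared by Hoxb8 and Hoxb7 lay between 1.33 and 1.53 on null and between 1.21 and 1.34 on heterozygous arrays.

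Jazf1, a zinc finger gene on the far side of HoxA, stood at 8.32, 9.37 and 3.26 on null replicates 1, 2 and 3, against 6.15, 6.17 and 5.93 on the heterozygous arrays. The antisense transcript Hoxa11os, which overlaps Hoxa11, averaged 8.09 ± 0.33 in null and 7.94 ± 0.31 in heterozygous arrays (SD, n = 3 each), a log2 difference of 0.16 (95% interval -0.45 to 0.77, limma adjusted p = 0.752). Hoxa11 itself differed by 1.76, and whether the 2 differ in their change was not tested. The skeletal actin gene Acta1 stood at 4.78, 4.61 and 4.91 on null arrays and at 7.75, 3.92 and 3.13 on heterozygous arrays, highest on heterozygous replicate 1, which also held the lowest value of 5 of the 7 tested HoxA genes. Without that array the HoxA median was 0.83, with 7 of 7 differences positive. Whether Acta1 and the HoxA values are linked was not tested.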
